A study of Homo sapiens with 16 samples.

Results

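The genes described here are 8 human genes of sulfur amino acid and glutathione metabolism: MAT2A and AHCY of the methionine cycle, CBS and CTH of transsulfuration, the cystine importer gene SLC7A11, GCLC and GSS of glutathione synthesis, and CHAC1 of glutathione breakdown. They are 8 of 19775 genes with a probe set that names 1 gene, and 8 of the 14049 genes that were tested. The set was drawn up with the responses of these same arrays known, and the vehicle levels and the differences between azacitidine and vehicle are the values that chose it, so both are given as descriptions without a test. Each gene is read from its probe set (a group of short probes to 1 transcript region) with the highest mean signal, and all 8 reached the median signal of the array on 16 of 16 arrays.

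RNA was measured on 16 Affymetrix arrays in 4 established human acute myeloid leukaemia cell lines: AML-193 (monocytic), HNT-34, KG1a (immature) and HL60 (promyelocytic). Each line was given DMSO as vehicle or azacitidine (AZA) at 0.5 µM, once a day over 3 days, and then grew for 4 days free of drug. AZA is a nucleoside that, once built into DNA, binds DNA methyltransferases irreversibly and so lowers methylation. This makes 8 groups of 2 arrays: AML-193, HNT-34, KG1a and HL60 with vehicle, and the same lines with AZA. All groups grew in a medium with unlabelled lysine and arginine made for mass spectrometry, each line stands for 1 leukaemia, and the labels leave unsaid whether replicate arrays stem from different cultures. The study set out to follow how AZA affects DNA methylation, and these arrays show which transcripts differed a few days after the drug.

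Methionine is activated to S-adenosylmethionine, the donor of methyl groups for DNA, by methionine adenosyltransferase, whose catalytic subunit outside the liver is encoded by MAT2A. The product left after methyl transfer is split by AHCY into adenosine and homocysteine, and transsulfuration turns homocysteine into cysteine in a pair of steps, by CBS and then by CTH. Cells also take up cysteine in its oxidised form, cystine, through SLC7A11, and join it with glutamate (GCLC) and glycine (GSS) to glutathione, the main thiol of the cell, which CHAC1 cleaves. SLC7A11, CBS, CTH and CHAC1 are known targets of ATF4, the transcription factor of the integrated stress response, and SLC7A11 and GCLC are known targets of the antioxidant factor NRF2.

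Promoter sequence from RefSeq (GRCh38.p14) was at hand for 6 of the 8 genes, and SLC7A11 and GSS were not in the table. Upstream sequences of CHAC1 and CTH are shown because these genes behaved differently: CHAC1 was lower after AZA in all 4 lines, and CTH was far lower in AML-193 alone. Both run 5′ to 3′ on the gene's strand over the 250 bases before the start, at chr15:40953221-40953470 (plus strand) for CHAC1 and chr1:70411018-70411267 (plus strand) for CTH. Capitals mark the match to the C/EBP-ATF response element described next.
CHAC1: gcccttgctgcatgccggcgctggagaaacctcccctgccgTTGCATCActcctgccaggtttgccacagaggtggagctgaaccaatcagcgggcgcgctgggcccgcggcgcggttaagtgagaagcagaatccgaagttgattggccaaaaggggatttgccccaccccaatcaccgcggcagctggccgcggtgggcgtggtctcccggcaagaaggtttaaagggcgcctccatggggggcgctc
CTH: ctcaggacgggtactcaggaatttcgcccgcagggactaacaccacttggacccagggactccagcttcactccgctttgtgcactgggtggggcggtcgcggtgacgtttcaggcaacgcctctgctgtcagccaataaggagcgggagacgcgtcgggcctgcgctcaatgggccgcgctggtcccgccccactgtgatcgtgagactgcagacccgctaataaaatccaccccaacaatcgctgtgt

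Windows of 300 bases, 250 before and 50 after each start, were searched on both strands for TGATGNAA, the core of the C/EBP-ATF element, for TGACNNNGC, the core of the antioxidant response element, for TGACGTCA, the cAMP response element, and for CACGTG, the E-box. The C/EBP-ATF core was found in CHAC1, on the opposite strand as TGATGCAA, at positions -209 to -202 from the start (TTGCATCA as printed). It occurs in 3.62% of all 35116 promoter windows of the table. The antioxidant core was found once, before the first of 3 listed starts of CBS, as TGACCGCGC on the opposite strand at positions -83 to -75 from that start, and occurs in 13.3% of all windows. The cAMP element (1.85% of all windows) and the E-box (7.26%) were in none of the 10 windows of these 6 genes, and CTH, GCLC, MAT2A and AHCY held none of the 4 motifs. CpG dinucleotides, the sites that DNA methyltransferases act on, numbered 26 in CTH, 24 in CHAC1, 32 in GCLC, 43 in MAT2A, and 50, 32 and 4 at the 3 starts of CBS, against a median of 14 over all windows. At the 3 starts of AHCY there were 19, 24 and 39.

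Across genes, the 2 arrays of each group correlated at r = 0.995 to 0.998, where genes are not independent replicates, and for these 8 genes they differed by at most 0.39 log2 units (CHAC1 in HL60 with AZA). The leukocyte gene PTPRC and the myeloid factor gene SPI1 were bright in all 4 lines, while, averaged over both arms, MPO and CD14 were below the array median in HNT-34, CD14 in KG1a, and ANPEP, KIT and CD14 in AML-193 (CD14 there was at 5.87 with vehicle and 7.52 with AZA); CD33 had no usable probe set. The mean level of the 8 measured leukocyte and myeloid markers moved with AZA, from 8.28 to 9.18 in AML-193, 9.62 to 9.12 in HNT-34, 9.58 to 9.83 in KG1a and 9.91 to 10.74 in HL60, and 5, 6, 7 and 8 of the 8 reached the array median. Of the T cell markers 2 to 4 of 5 reached it, at mean levels of 6.67 to 7.24 with vehicle and 6.83 to 8.07 with AZA. B cell (2 or 3 of 4), epithelial (2 of 5) and fibroblast markers (2 of 5) had mean levels between 5.73 and 7.51. The part of these shifts in the results was not tested. Control probe sets at the 3′ and 5′ ends of ACTB and GAPDH give a 3′ minus 5′ signal, which grows as RNA degrades. In AML-193 it was 1.27 ± 0.463 (SD, n = 2) on vehicle arrays and 0.198 ± 0.0433 on AZA arrays, and in HL60 it was 0.0443 ± 0.0116 and 0.722 ± 0.163. In HNT-34 and KG1a the group means lay between -0.10 and 0.06.

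After AZA, CBS, SLC7A11 and CHAC1 were lower in every line, with differences from -3.17 to -0.70 log2 units, and on every array of each line the AZA value lay below both vehicle values. Of all tested genes, 33.4% in AML-193, 33.3% in HNT-34, 23.5% in KG1a and 28.3% in HL60 had both AZA arrays below both vehicle arrays. Over the 8 genes this held for 6, 5, 4 and 5. Both AZA arrays lay above both vehicle arrays for 2 genes in AML-193 (35.9% of all tested genes), 2 in HNT-34 (35.2%), 1 in KG1a (28.8%) and 1 in HL60 (41.2%). CTH was 8.25-fold lower in AML-193 and within 0.30 log2 units of vehicle in the other lines. GCLC, GSS, MAT2A and AHCY stayed within 0.69 log2 units of vehicle in all lines. The arrays read a whole culture, so less transcript per cell and fewer cells carrying it cannot be told apart. By the call rule used for all genes (limma, adjusted p under 0.05), 6 of the 8 were called lower in AML-193 (20.2% of all tested genes), 4 in HNT-34 (14.8%), 3 in KG1a (3.36%) and 5 in HL60 (16%). GSS alone was called higher, in HL60 (25.2% of all genes). Because the set was chosen on these differences, nothing is read from these counts. All differences are log2 values of AZA less vehicle, given ± the standard error from limma, with 2 arrays per arm.

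**Figure D1:**
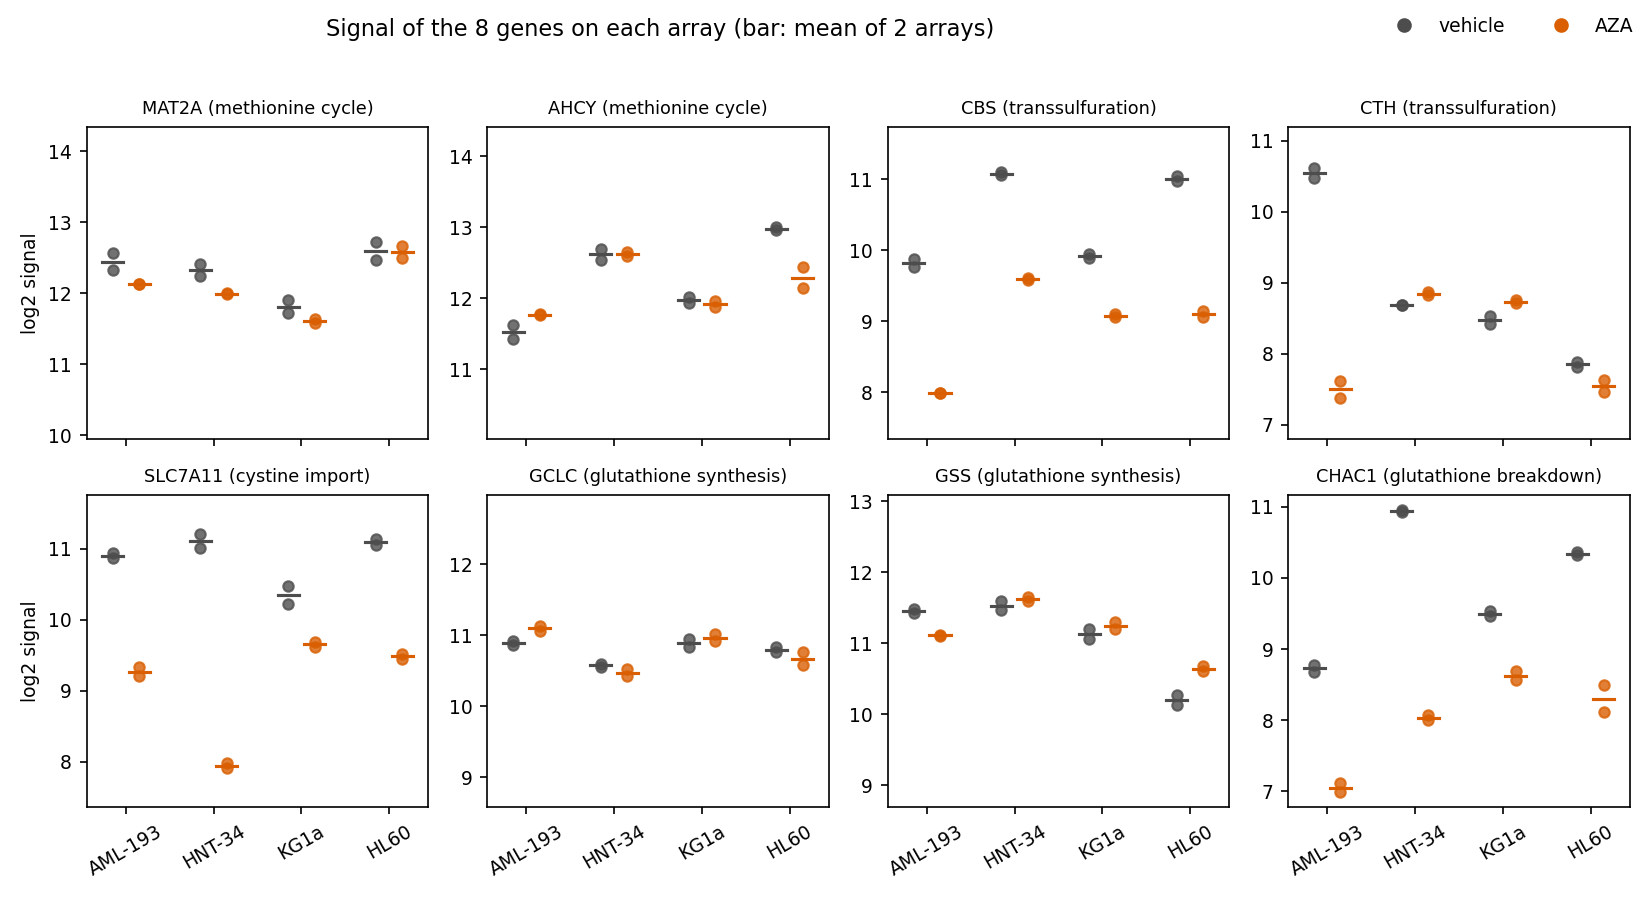
Log2 signal (vertical axis, 4.4 units tall in each panel) of the 8 genes on every array of the 4 lines, with vehicle in grey, AZA in orange, and a bar at the mean of 2 arrays. CBS, SLC7A11 and CHAC1 are lower with AZA in all 4 lines, and CTH is clearly lower in AML-193. Of the other 4 genes, AHCY in HL60 moves most (-0.69).

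CBS, the enzyme that joins homocysteine to serine, read 9.87 and 9.76 on the vehicle arrays of AML-193 and 7.98 and 7.98 on its AZA arrays. In HNT-34 it read 11.10 and 11.05 against 9.58 and 9.61, and in HL60 11.04 and 10.97 against 9.14 and 9.06. In KG1a the values were 9.94 and 9.89 against 9.10 and 9.06. The AZA arrays were low in each line and no groups overlapped. The differences were -1.91 ± 0.07 in HL60, -1.83 ± 0.07 in AML-193, -1.48 ± 0.07 in HNT-34 and -0.84 ± 0.07 in KG1a, which are 3.75-, 3.56-, 2.80- and 1.79-fold lower levels. With vehicle, CBS was highest in HNT-34 and HL60, 0.07 apart against a replicate SD of 0.05, and more than 1 unit lower in KG1a and AML-193, which were 0.10 apart.

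CTH, which cleaves cystathionine to cysteine, had a different pattern. Its vehicle arrays in AML-193 read 10.61 and 10.47 and the AZA arrays 7.38 and 7.61, a difference of -3.04 ± 0.09. This was the lowest of all 14049 differences in that line (rank 1). In HNT-34 it read 8.69 and 8.69 with vehicle and 8.82 and 8.86 with AZA, in KG1a 8.42 and 8.54 against 8.72 and 8.75, and in HL60 7.82 and 7.88 against 7.47 and 7.63. The AZA arrays lay slightly above the vehicle arrays in HNT-34 (0.15 ± 0.09) and KG1a (0.26 ± 0.09) and slightly below in HL60 (-0.30 ± 0.09). AML-193 had by far the highest vehicle level, 1.85 above HNT-34, which was 0.21 above KG1a, with HL60 0.62 lower still (replicate SD 0.07). After AZA the AML-193 level was the lowest of the 4 lines, next to HL60, and the range over lines was 1.34 against 2.69 with vehicle.

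SLC7A11, the light chain of the cystine-glutamate exchanger, read 11.02 and 11.21 on the vehicle arrays of HNT-34 and 7.91 and 7.98 on the AZA arrays. That difference of -3.17 ± 0.10, or 8.99-fold, was the second lowest of the line (rank 2 of 14049). In AML-193 the arrays read 10.94 and 10.87 against 9.20 and 9.34 (-1.63 ± 0.10), in HL60 11.14 and 11.05 against 9.45 and 9.52 (-1.61 ± 0.10), and in KG1a 10.48 and 10.23 against 9.61 and 9.70 (-0.70 ± 0.10). With vehicle the lines were close: HNT-34 and HL60 overlapped, AML-193 lay 0.19 below HL60 and KG1a 0.55 below AML-193, with a replicate SD of 0.12. After AZA the range over the lines was 1.71 against 0.76 with vehicle, since HNT-34, at the top with vehicle, was now the lowest.

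CHAC1, which cleaves glutathione to oxoproline and cysteinylglycine, read 10.93 and 10.96 in HNT-34 with vehicle and 8.08 and 7.99 with AZA (-2.91 ± 0.11). In HL60 it read 10.33 and 10.36 against 8.49 and 8.11 (-2.04 ± 0.11), in AML-193 8.78 and 8.68 against 7.11 and 6.98 (-1.68 ± 0.11), and in KG1a 9.53 and 9.46 against 8.56 and 8.70 (-0.87 ± 0.11). The vehicle levels were well separated, from HNT-34 through HL60 and KG1a to AML-193, with steps of 0.60, 0.85 and 0.77 against a replicate SD of 0.05. The AZA level in AML-193 was close to the array median of 6.73. The transporter and the glutathione-cleaving enzyme thus shared the lowest difference in HNT-34 and the smallest in KG1a, whereas for CBS the differences of HL60 and AML-193 exceeded that of HNT-34.

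**Figure D2:**
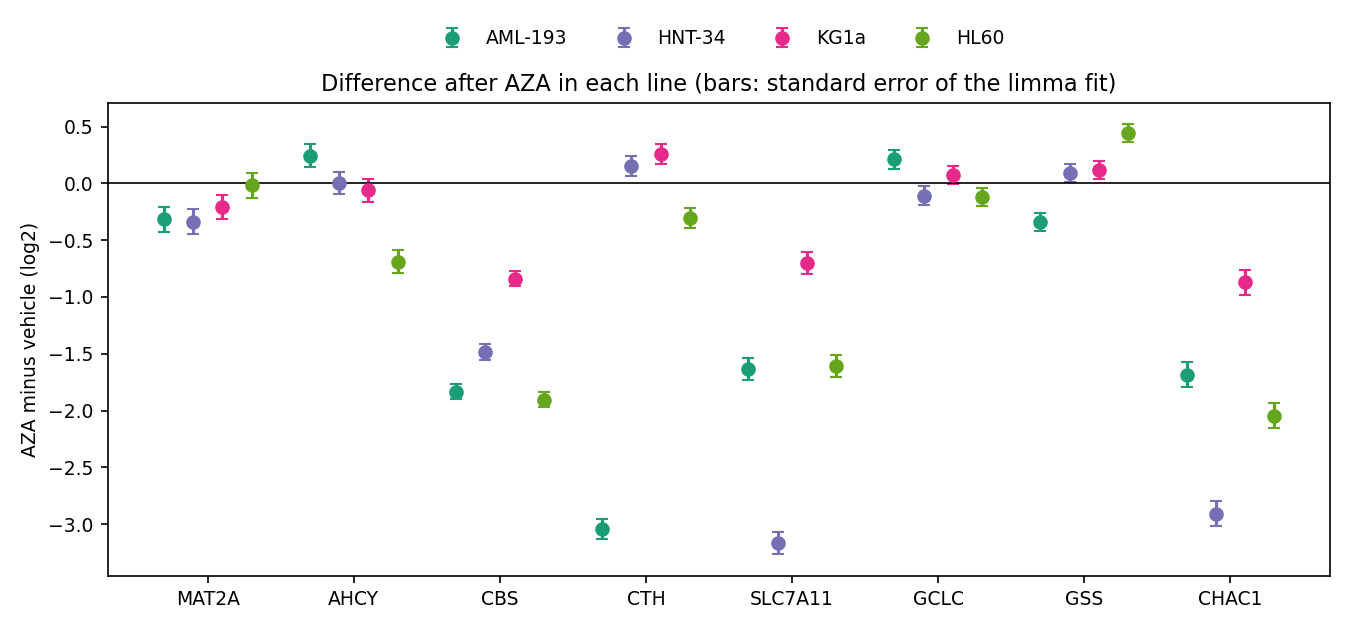
AZA minus vehicle (log2, vertical axis) of the 8 genes in the 4 lines, with points at the difference of group means (2 arrays per arm) and bars for the standard error from limma. CTH in AML-193 (-3.04) and SLC7A11 (-3.17) and CHAC1 (-2.91) in HNT-34 lie lowest.

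The enzymes of glutathione synthesis moved by at most 0.44 log2 units. GCLC, the catalytic subunit of the first and rate-limiting step, read 10.91 and 10.86 in AML-193 with vehicle against 11.06 and 11.13 with AZA (0.21 ± 0.08). In HNT-34 it read 10.59 and 10.55 against 10.52 and 10.42 (-0.11 ± 0.08), in KG1a 10.83 and 10.94 against 11.01 and 10.91 (0.08 ± 0.08), and in HL60 10.83 and 10.76 against 10.76 and 10.57 (-0.12 ± 0.08). The groups overlapped in KG1a and HL60, and the vehicle levels of all lines lay within 0.31 log2 units.

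GSS, which adds glycine in the last step, read 11.48 and 11.43 against 11.10 and 11.12 in AML-193 (-0.34 ± 0.08) and 10.13 and 10.27 against 10.68 and 10.61 in HL60 (0.44 ± 0.08). In HNT-34 it read 11.46 and 11.59 against 11.65 and 11.59 (0.10 ± 0.08), and in KG1a 11.20 and 11.06 against 11.20 and 11.29 (0.11 ± 0.08). HL60, whose vehicle level was 0.93 below that of the next line, moved up and AML-193 moved down, and both pairs of groups were apart.

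In the methionine cycle, AHCY was lower in HL60, at 12.14 and 12.45 with AZA against 12.96 and 13.01 with vehicle (-0.69 ± 0.10), the line with its highest vehicle level. In AML-193, the line with the lowest, it read 11.43 and 11.62 with vehicle and 11.78 and 11.76 with AZA (0.25 ± 0.10). The arms overlapped in HNT-34 (12.54 and 12.70 against 12.65 and 12.60) and in KG1a (12.03 and 11.93 against 11.88 and 11.96). For MAT2A the probe set used read 12.56 and 12.32 against 12.13 and 12.12 in AML-193 (-0.32 ± 0.11), and 12.25 and 12.42 against 12.00 and 11.98 in HNT-34 (-0.34 ± 0.11). In KG1a it read 11.91 and 11.71 against 11.57 and 11.63 (-0.21 ± 0.11), and in HL60 the arms overlapped at 12.72 and 12.47 against 12.66 and 12.49 (-0.02 ± 0.11).

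The 8 genes have 17 probe sets, and CHAC1 and AHCY have only 1 each. Of the other probe sets, the second brightest of CBS gave -1.74, -1.55, -0.81 and -1.97 in AML-193, HNT-34, KG1a and HL60, close to the one used. A dim one of CBS, near the array median, gave -1.20 in AML-193 and between -0.20 and 0.05 elsewhere. For SLC7A11, the second brightest gave -1.57, -2.90, -0.80 and -1.86, and the dimmest gave -0.33, -1.46, -0.59 and -0.98 in the same order of lines. The dimmer one of CTH gave -2.10 in AML-193, -0.65 in HL60, -0.03 in HNT-34 and 0.01 in KG1a. The other probe sets of GCLC stayed between -0.12 and 0.24, and that of GSS between -0.06 and 0.18. All 3 probe sets of SLC7A11 were lower in every line, and both of CTH were lowest in AML-193.

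**Figure D3:**
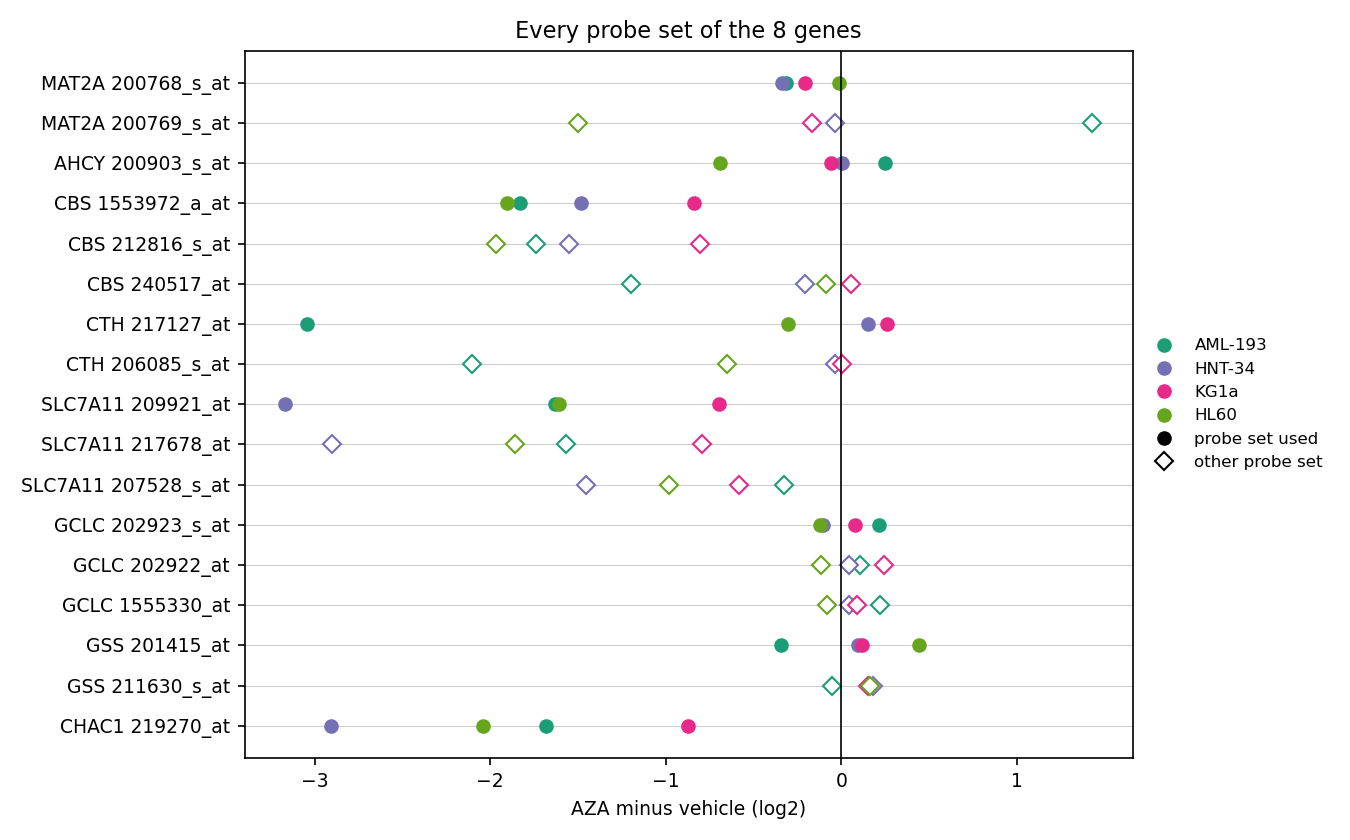
AZA minus vehicle (log2, horizontal axis) for each of the 17 probe sets of the 8 genes, coloured by line, with filled circles for the probe set used and open diamonds for the others. The second probe set of MAT2A lies at 1.43 in AML-193 and at -1.50 in HL60, unlike the one used.

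The 2 probe sets of MAT2A gave opposite signs in AML-193. The dimmer one read 8.09 and 8.68 in AML-193 with vehicle against 9.84 and 9.79 with AZA (1.43), and 11.26 and 11.09 against 9.68 and 9.66 in HL60 (-1.50), while HNT-34 (-0.03) and KG1a (-0.17) overlapped. These are the lines whose arms differ in the 3′ minus 5′ control signal, and in each of them the arm with the larger control signal had the lower reading (1.27 against 0.198 in AML-193, 0.722 against 0.0443 in HL60). The part of RNA integrity in this reading was not tested. With the control signal as a covariate in the fit, the probe set used gave 0.18 in AML-193 and -0.33 in HL60 in place of -0.32 and -0.02, so no direction is given for MAT2A in these lines.

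**Figure D4:**
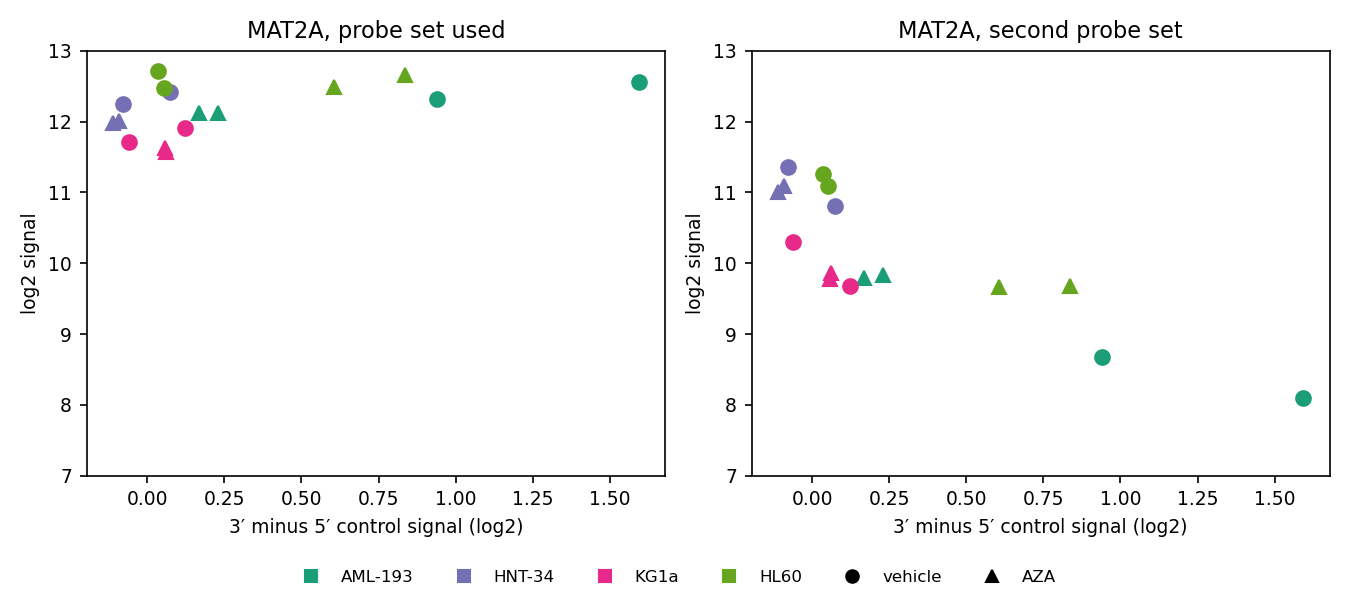
Log2 signal of the 2 MAT2A probe sets (vertical axes) on the 16 arrays against the 3′ minus 5′ control signal, averaged over ACTB and GAPDH (horizontal axis, log2), with circles for vehicle and triangles for AZA. On the second probe set the AML-193 vehicle arrays, at the largest control signal, read lowest (8.09 and 8.68).

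The same covariate left the signs of the 4 genes with large changes in place but shifted some sizes, as for CHAC1 in AML-193 (-1.68 without it). In AML-193 it gave -3.01 ± 0.21 for CTH, -1.66 ± 0.13 for CBS, -1.45 ± 0.21 for SLC7A11 and -1.32 ± 0.22 for CHAC1. In HL60 it gave -2.02 ± 0.10 for CBS, -1.73 ± 0.15 for SLC7A11 and -2.27 ± 0.16 for CHAC1. Among the smaller differences, GSS was then at -0.16 in AML-193 and 0.32 in HL60, and AHCY at -0.05 in AML-193 and -0.50 in HL60.

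By root mean square distance over the 4 line differences, the tested genes nearest to CBS were CHRM3-AS2 (0.31), TMEM268 (0.49) and TUBE1 (0.51). Nearest to SLC7A11 were PCK2 (0.55), the tryptophanyl-tRNA synthetase gene WARS1 (0.60) and the pseudokinase gene TRIB3 (0.74), and nearest to CHAC1 were PCK2 (0.63), WARS1 (0.72) and CHRM3-AS2 (0.73). PCK2, a mitochondrial enzyme, was at -1.70, -2.26, -0.52 and -1.03 in AML-193, HNT-34, KG1a and HL60. For CTH they were RUNDC3B (0.69), CD96 (0.71) and OLMALINC (0.78), which were at -1.70, -1.73 and -2.44 in AML-193, less low than CTH. The likeness rests on 4 lines and has no test.

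Around these 8 genes, 121 other genes of the same pathways were taken in 7 lists, of which 102 passed the filter on dim genes; these were tested with limma, adjusted over all 14049 genes. In AML-193, 33 of the 102 rose and 25 fell (20.7% and 20.2% of all tested genes did so), in HNT-34 21 rose and 21 fell (15.4% and 14.8%), in KG1a 14 rose and 3 fell (6.56% and 3.36%), and in HL60 20 rose and 31 fell (25.2% and 16%). The median differences were 0.12, 0.01, 0.06 and -0.05 against 0.02, 0.01, 0.02 and 0.05 over all genes. The effect of AZA differed between lines for 72 of the 102 (moderated F-test), as it did for 57% of all genes. With the 3′ minus 5′ covariate the counts in AML-193 were 1 higher and 5 lower (1.54% and 1.12% of all genes), and in HL60 17 and 12 (9.65% and 5.64%). In HNT-34 they were 20 and 25 (16.7% and 15.8%), and in KG1a 16 and 4 (7.67% and 4.33%). Leaving out 1 array moved a pair of these counts by more than 1.5 times: without AZA array 2 of HNT-34, 13 genes rose in that line, and in KG1a 8 rose without vehicle array 1, 8 without AZA array 1 and 9 without AZA array 2.

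**Figure D5:**
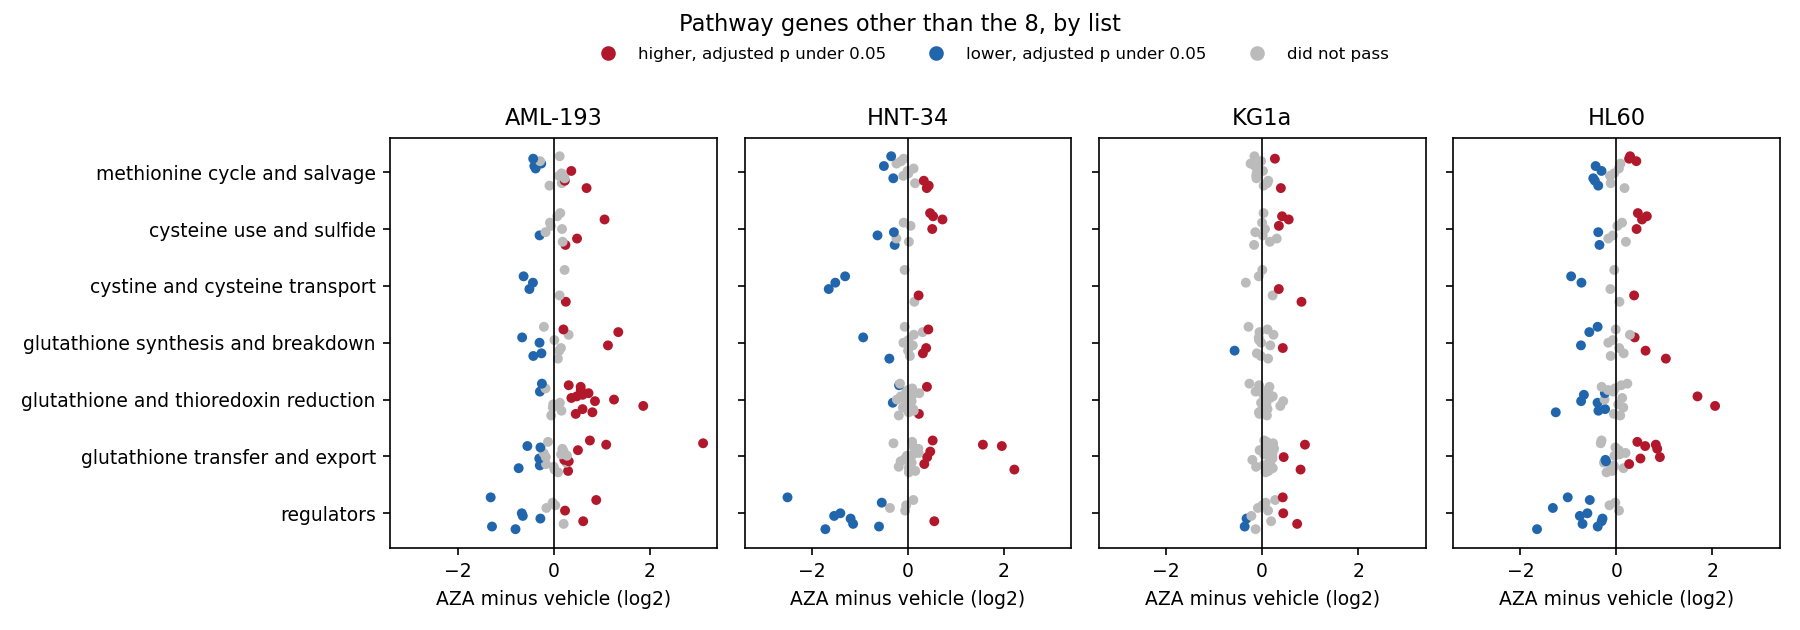
AZA minus vehicle (log2, horizontal axis) of 102 tested pathway genes other than the 8, in the 7 lists and 4 lines, coloured by the limma call (adjusted p under 0.05). The regulators fall to the left in HNT-34 (8 of 13 called lower, against 14.8% of all tested genes) and HL60 (10 of 13, against 16%). With the 3′ minus 5′ covariate 7 of 13 were called lower in HL60 (against 5.64%), and this list was written with these responses known.

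Among carriers of cystine, cysteine and neutral amino acids, 3 of 6 fell and 1 rose in AML-193 (20.2% and 20.7% of all tested genes) and in HNT-34 (14.8% and 15.4%). In HL60 2 fell and 1 rose (16% and 25.2%), and in KG1a 0 fell and 2 rose (3.36% and 6.56%). SLC3A2, the heavy chain that brings SLC7A11 to the cell surface, fell in HNT-34 (-1.31 ± 0.08, limma adjusted p = 4.46e-08), in HL60 (-0.94 ± 0.08, 1.52e-06) and in AML-193 (-0.63 ± 0.08, 5.95e-05). In KG1a, where SLC7A11 differed least, it was at -0.07 ± 0.08 (0.671). The neutral amino acid carriers SLC1A4 (-1.65 ± 0.06) and SLC1A5 (-1.51 ± 0.14) fell in HNT-34, and SLC1A4 rose in KG1a (0.35 ± 0.06). Both fell in AML-193 (-0.51 and -0.43), SLC1A5 fell in HL60 (-0.73 ± 0.14), and the lysosomal cysteine carrier gene MFSD12 rose there (0.37 ± 0.07). Of SLC1A4, probe sets ranged from -1.23 to 0.41 in AML-193. CTNS, the lysosomal cystine exporter, rose in KG1a (0.82 ± 0.10), where its probe sets ranged from 0.11 to 0.82. With the covariate, SLC3A2 was at -0.94 in AML-193 and -0.74 in HL60 and kept both calls. SLC1A4 (-0.42 ± 0.13, limma adjusted p = 0.136) and SLC1A5 (-0.72 ± 0.32, 0.284) lost theirs in AML-193. The SLC1A5 difference there was larger with the covariate, and so was its standard error. In HL60, SLC1A5 (-0.55, 0.139) and MFSD12 (0.31, 0.0845) lost their calls. SLC1A5 in AML-193 (0.061) and SLC1A4 in KG1a (0.0562) also missed the threshold with the line fitted alone. Leaving out vehicle array 2 or AZA array 2 of AML-193 ended the first call (0.152 to 0.245), and leaving out AZA array 1 of KG1a the second (0.0543).

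Of 13 genes for glutathione synthesis and breakdown, 3 rose and 4 fell in AML-193 (20.7% and 20.2% of all tested genes), and 3 and 2 in HNT-34 (15.4% and 14.8%). In KG1a 1 rose and 1 fell (6.56% and 3.36%), and in HL60 3 and 3 (25.2% and 16%). GCLM, the modifier subunit that partners GCLC, rose in AML-193 (1.13 ± 0.14, limma adjusted p = 5.89e-05) and fell in HL60 (-0.74 ± 0.14, 0.00109), and was at 0.10 and 0.17 in HNT-34 and KG1a. These are again the lines with unequal 3′ minus 5′ signal, another of its probe sets read -0.03 in AML-193 and 0.02 in HL60, and neither call held with the covariate (adjusted p = 0.17 and 0.109). CHAC2, the paralogue of CHAC1, fell in AML-193 (-0.42 ± 0.10, 0.00437; 0.454 with the covariate, 0.0593 without AZA array 1) and was at 0.04, -0.03 and -0.12 in HNT-34, KG1a and HL60, none of which passed. The γ-glutamyl transferase gene GGT5 fell in HNT-34 (-0.93 ± 0.10) and AML-193 (-0.66 ± 0.10), and the aminopeptidase gene ANPEP rose in HL60 (1.03 ± 0.10) and fell in HNT-34 (-0.39 ± 0.10). GGT5 lost its call in AML-193 with the covariate (-0.50, adjusted p = 0.31). The probe sets of ANPEP ranged from -0.07 to 1.03 in HL60 and from -0.39 to 0.05 in HNT-34. ANPEP lost its call in HNT-34 with averaged probe sets (-0.12, 0.202) and without vehicle array 2 or AZA array 1 of that line (0.0848 to 0.128). Another aminopeptidase gene, LAP3, rose in AML-193 (1.34 ± 0.16, but 0.49 with the covariate, adjusted p = 0.394), and the dipeptidase gene DPEP2 fell in KG1a (-0.57 ± 0.10) and rose in HL60 (0.61 ± 0.10). SLC25A39, a carrier that brings glutathione into mitochondria, rose in HNT-34 (0.43 ± 0.06), and DPEP3 rose in KG1a (0.43 ± 0.12). The DPEP3 call was lost without any 1 array of KG1a and without either AZA array of HNT-34 (adjusted p = 0.0551 to 0.195).

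Of 14 genes of the methionine cycle and salvage, 3 rose and 4 fell in AML-193 (20.7% and 20.2% of all tested genes), and 3 and 3 in HNT-34 (15.4% and 14.8%). In KG1a 2 rose and 0 fell (6.56% and 3.36%), and in HL60 3 and 5 (25.2% and 16%). ADI1, of methionine salvage, rose in AML-193 (0.68 ± 0.07), HNT-34 (0.39 ± 0.07) and KG1a (0.39 ± 0.07), and its call in AML-193 was lost with the covariate (adjusted p = 0.0749). MTAP fell in HNT-34 (-0.50 ± 0.08), HL60 (-0.43 ± 0.08) and AML-193 (-0.40 ± 0.08), but its probe sets ranged from -1.71 to 0.03 in HL60 and from -0.73 to 1.05 in AML-193. Its call in AML-193 was lost with the covariate (adjusted p = 0.495), and that in HNT-34 with averaged probe sets (-0.16, 0.257). MAT2B, the regulatory partner of MAT2A, rose in AML-193 (0.37 ± 0.09) and fell in HL60 (-0.31 ± 0.09), and with the covariate it was at -0.03 and -0.06 (adjusted p = 0.948 and 0.798). The MAT2B call in HL60 was lost too with the line alone (0.0796) and without either vehicle array or AZA array 1 (0.0563 to 0.168), and that in AML-193 without vehicle array 1 or AZA array 2 (0.0512 to 0.064). AHCYL1, a relative of AHCY, rose in HNT-34 (0.43 ± 0.08) and fell in HL60 (-0.38 ± 0.08), and AHCYL2 passed in no line (-0.12 to 0.17). In HL60 the AHCYL1 call was lost with the covariate (-0.26, adjusted p = 0.19) and with averaged probe sets (-0.20, 0.0706). In polyamine synthesis, SMS fell in AML-193 (-0.43 ± 0.08) and rose in KG1a (0.27 ± 0.08), and AMD1 fell in HL60 (-0.45 ± 0.08). With the covariate, SMS in AML-193 (-0.31, adjusted p = 0.363) and AMD1 in HL60 (-0.23, 0.174) lost their calls. SMS in KG1a lost its call with no filter on dim genes (0.0719), with the line alone (0.14) and in 12 of the 16 fits that leave out 1 array (0.0518 to 0.28): any array of KG1a or HNT-34, either AZA array of AML-193 or either vehicle array of HL60. APIP, of methionine salvage, fell in HL60 (-0.48 ± 0.10), but lost its call when probe sets were averaged (-0.11, 0.343) and under the covariate (-0.26, 0.281), and its probe sets ranged from -0.48 to 0.26.

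Among 11 genes of cysteine use and sulfide handling, SQOR, which oxidises sulfide in mitochondria, rose in all 4 lines, by 1.06 ± 0.11 in AML-193, 0.72 ± 0.11 in HNT-34, 0.55 ± 0.11 in KG1a and 0.53 ± 0.11 in HL60. Its level was near the array median of 6.73 in HNT-34 (6.88 with vehicle, 7.60 with AZA) and in KG1a (7.08 with vehicle, 7.63 with AZA). With the covariate SQOR was at 0.89 in AML-193 (adjusted p = 0.106). The sulfite oxidase gene SUOX rose in HL60 (0.63 ± 0.09), HNT-34 (0.52 ± 0.09) and KG1a (0.41 ± 0.09), and the aminotransferase gene GOT1 fell in HNT-34 (-0.63 ± 0.07) and AML-193 (-0.29 ± 0.07). ETHE1, of sulfide oxidation, rose in AML-193 (0.49 ± 0.11, but -0.02 with the covariate), TST in HL60 (0.45 ± 0.07) and PAPSS1 in KG1a (0.35 ± 0.06). GOT1 in AML-193 lost its call with the covariate (-0.54, adjusted p = 0.0802), with the line alone (0.0506) and without AZA array 1 (0.0614). With KG1a fitted alone the calls of SUOX (0.0985) and PAPSS1 (0.0562) there were lost. SUOX in KG1a was also lost without vehicle array 1 or AZA array 2 (0.0797 to 0.125), and SQOR in KG1a without vehicle array 1 or AZA array 1 (0.0691 to 0.0726). The probe sets of SUOX ranged from -0.17 to 0.63 in HL60. Of the list, 3, 4, 3 and 4 genes rose and 1, 3, 0 and 2 fell in AML-193, HNT-34, KG1a and HL60. Over all tested genes 20.7%, 15.4%, 6.56% and 25.2% rose and 20.2%, 14.8%, 3.36% and 16% fell in the same order of lines.

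Of 21 genes that reduce glutathione, thioredoxin or peroxides, 13 rose and 2 fell in AML-193 (20.7% and 20.2% of all tested genes). In HL60 2 rose and 7 fell (25.2% and 16%), and in HNT-34 2 and 2 (15.4% and 14.8%). None passed in KG1a (6.56% and 3.36%), where at an unadjusted p under 0.05 3 of the 21 would have been called. The glutathione reductase gene GSR rose in AML-193 (0.86 ± 0.13) and fell in HL60 (-0.73 ± 0.13), and the thioredoxin-like gene GLRX3 rose in AML-193 (0.81 ± 0.17) and fell in HL60 (-1.26 ± 0.17). Their other probe sets did not share these signs: those of GSR ranged from -0.21 to 0.86 in AML-193 and from -0.73 to 0.80 in HL60, and those of GLRX3 from -0.24 to 0.81 and from -1.26 to 0.25. Both lines are those with unequal 3′ minus 5′ signal, and with the covariate the list had 0 limma calls in AML-193 (6 at an unadjusted p under 0.05), and 3 higher and 1 lower in HL60. Over all tested genes the covariate left 1.54% higher and 1.12% lower in AML-193, and 9.65% and 5.64% in HL60. GSR was then at 0.48 and -0.50 (adjusted p = 0.415 and 0.128), and GLRX3 at -0.15 and -0.66 (0.819 and 0.0324). GPX3, a secreted glutathione peroxidase, rose in both, by 1.86 ± 0.18 in AML-193 and 2.05 ± 0.18 in HL60. The covariate left 1.64 (limma adjusted p = 0.0704) and 2.19. In HL60 GPX3 was at 6.24 with vehicle, below the array median of 6.73, and at 8.30 with AZA. PRDX2 rose in HL60 (1.69 ± 0.14), where its probe sets ranged from -0.25 to 1.69. PGD, of the pentose phosphate pathway, rose in AML-193 (1.26 ± 0.11, but 0.64 with the covariate, adjusted p = 0.0686), and its probe sets ranged from -0.06 to 1.26. In HNT-34, TXN2 (0.40 ± 0.13) and GLRX2 (0.23 ± 0.08) rose and GPX7 (-0.31 ± 0.10) fell. TXN2 lost its call with the covariate (adjusted p = 0.0501) and GLRX2 with no filter on dim genes (0.0612). Without vehicle array 2 or either AZA array of HNT-34, TXN2 (0.114 to 0.206) and GPX7 (0.102 to 0.178) lost their calls, and GLRX2 did so without any 1 array of HNT-34 or either AZA array of KG1a (0.0522 to 0.187).

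Among 24 genes that conjugate or export glutathione, 7 rose and 5 fell in AML-193 (20.7% and 20.2% of all tested genes), and 7 and 0 in HNT-34 (15.4% and 14.8%). In KG1a 3 rose and 0 fell (6.56% and 3.36%), and in HL60 7 and 2 (25.2% and 16%). LTC4S, which joins glutathione to leukotriene A, rose in every line, by 1.56 ± 0.10 in HNT-34, 1.09 ± 0.10 in AML-193, 0.89 ± 0.10 in KG1a and 0.82 ± 0.10 in HL60; the covariate left 0.65 in AML-193 (adjusted p = 0.116). The prostaglandin D synthase gene HPGDS rose in HNT-34 (1.95 ± 0.10) and HL60 (0.60 ± 0.10) and fell in AML-193 (-0.55 ± 0.10), where the covariate left -0.61 (adjusted p = 0.205). The exporter gene ABCC4 rose in HNT-34 (2.22 ± 0.10) and KG1a (0.80 ± 0.10). MGST1, a membrane-bound glutathione transferase, rose by 3.11 ± 0.24 in AML-193, where its probe sets ranged from 0.06 to 3.87. MGST3 rose in AML-193 (0.75 ± 0.12, but 0.05 with the covariate), GSTM3 in HL60 (0.91 ± 0.11) and KG1a (0.45 ± 0.11), and GSTZ1 in HL60 (0.85 ± 0.12). Probe sets of GSTM3 ranged from -0.003 to 0.91 in HL60 and from 0.05 to 0.45 in KG1a. The GSTM3 call in KG1a was lost without any 1 array of that line (adjusted p = 0.0617 to 0.133).

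Of the 13 tested regulators, 6 fell and 3 rose in AML-193 (20.2% and 20.7% of all tested genes), and 8 and 1 in HNT-34 (14.8% and 15.4%). In KG1a 2 fell and 3 rose (3.36% and 6.56%), and in HL60 10 and 0 (16% and 25.2%). With the covariate the counts were 4 and 0 in AML-193 (1.12% and 1.54% of all tested genes) and 9 and 1 in HNT-34 (15.8% and 16.7%). In KG1a they were 2 and 3 (4.33% and 7.67%), and in HL60 7 and 0 (5.64% and 9.65%). Because this list was written with their behaviour on these arrays known, nothing is read from these counts. ATF4 fell in all lines, by 1.28 ± 0.06 in AML-193, 0.60 ± 0.06 in HNT-34, 0.39 ± 0.06 in HL60 and 0.36 ± 0.06 in KG1a; with KG1a fitted alone its call there was lost (adjusted p = 0.0562). TRIB3, which restrains ATF4, fell in HNT-34 (-2.51 ± 0.10), AML-193 (-1.31 ± 0.10) and HL60 (-1.01 ± 0.10) and rose in KG1a (0.43 ± 0.10), where CBS, SLC7A11 and CHAC1 were still lower. Its probe sets ranged from -1.31 to 0.47 in AML-193, where the covariate left -0.74 (adjusted p = 0.0183), and its call in KG1a was lost without any 1 array of that line (0.0648 to 0.0993). ATF3 fell in HNT-34 (-1.72 ± 0.11) and HL60 (-1.65 ± 0.11), CEBPG in HNT-34 (-1.54 ± 0.08) and MAFF in HL60 (-1.32 ± 0.15; -0.84 with the covariate, adjusted p = 0.0131). Probe sets of ATF3 ranged from -1.72 to 0.10 in HNT-34 and from -1.65 to -0.14 in HL60, and those of MAFF from -1.32 to -0.32 in HL60. In KG1a, ATF5 (0.73 ± 0.09) and DDIT3 (0.44 ± 0.07), both factors of the stress response, rose. The probe sets of ATF5 there ranged from -0.05 to 0.73. NFE2L2, which encodes NRF2, rose in AML-193 (0.89 ± 0.14) and fell in HL60 (-0.55 ± 0.14), and with the covariate neither passed (adjusted p = 0.518 and 0.462). Its probe sets ranged from 0.05 to 0.89 in AML-193 and from -0.59 to -0.21 in HL60. Its call in HL60 was lost too without vehicle array 2 or AZA array 2 (0.0547 to 0.0652).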

How the data were processed

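RNA of 16 arrays (8 groups of 2) was measured on a whole-genome Affymetrix platform. Each deposited value is the log2 signal of 1 probe set, which the authors obtained with RMA in affy, per the submitters' processing notes; versions, log base and order of steps are not given in the sources used here, and log2 is read from the values (3.26 to 15.3, median 6.73). All 16 arrays share 1 distribution, so a shift of all transcripts would not show, and signals near background are compressed. The arrays hold 54675 probe sets: 41097 name a single gene, 1801 name several and 11777 name no gene. Gene identifiers placed 41043 of them in the GRCh38.p14 table, and 0 symbols changed. The probe set with the highest mean stood for each of 19775 genes, and 14049 genes reached the array median on at least 2 arrays. All groups were fitted with limma 3.58.1 (R 4.3.3), 1 mean per group, and p-values were adjusted by Benjamini and Hochberg at 0.05; they measure the spread between arrays, which may be technical, and 2 arrays per group limit the precision. The fit was tested on simulated data. Members, lists, naming rules and alternatives were chosen with earlier results of these data known. The genes named from the lists are, per list and line, up to 3 called genes with the largest change. GCLM, CHAC2, SLC3A2, MAT2B, AHCYL1, AHCYL2, ATF4 and NFE2L2 are named in any case. The nearest patterns are the 3 closest tested genes outside the 8 described. Alternatives were averaged probe sets, no filter, a further quantile normalization, the 3′ minus 5′ covariate, each line alone, a trended robust prior, and leaving out each array.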

Additional observations from a re-analysis of the deposited data

Results flagged for a closer look

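Of the 102 tested pathway genes, 28 were called higher in 1 line and lower in another, with an AZA effect that differed between lines. Of these 28, 17 are among the genes named above and are given here. The share of all tested genes with such opposite calls is not given, so nothing is read from the count. The adjusted p is that of limma's moderated F-test over the 4 lines. SLC1A4 was at 0.35 in KG1a and -1.65 in HNT-34 (adjusted p = 2.56e-08). TRIB3 was at 0.43 in KG1a and -2.51 in HNT-34 (adjusted p = 7.39e-08). HPGDS was at 1.95 in HNT-34 and -0.55 in AML-193 (adjusted p = 2.41e-07). DDIT3 was at 0.44 in KG1a and -1.41 in HNT-34 (adjusted p = 2.41e-07). ATF5 was at 0.73 in KG1a and -1.14 in HNT-34 (adjusted p = 7.55e-07). ANPEP was at 1.03 in HL60 and -0.39 in HNT-34 (adjusted p = 4.11e-05). GGT5 was at 0.38 in HL60 and -0.93 in HNT-34 (adjusted p = 4.29e-05). DPEP2 was at 0.61 in HL60 and -0.57 in KG1a (adjusted p = 0.000184). SMS was at 0.27 in KG1a and -0.43 in AML-193 (adjusted p = 0.000326). AMD1 was at 0.33 in HNT-34 and -0.45 in HL60 (adjusted p = 0.000428). AHCYL1 was at 0.43 in HNT-34 and -0.38 in HL60 (adjusted p = 0.000507). Probe sets ranged from -0.05 to 0.73 for ATF5 in KG1a and from -0.68 to 0.26 for AHCYL1 in HL60. For ANPEP they ranged from -0.07 to 1.03 in HL60 and from -0.39 to 0.05 in HNT-34. With the 3′ minus 5′ covariate, the call at one end was lost for HPGDS in AML-193 (-0.61), GGT5 in HL60 (0.28), SMS in AML-193 (-0.31), AMD1 in HL60 (-0.23) and AHCYL1 in HL60 (-0.26). 

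The other genes have their extremes in AML-193 and HL60, the lines whose arms differ in the 3′ minus 5′ control signal, whose part in the result was not tested. GCLM was at 1.13 in AML-193 and -0.74 in HL60 (adjusted p = 6.35e-05), and at 0.93 and -0.61 with the covariate. GSR was at 0.86 in AML-193 and -0.73 in HL60 (adjusted p = 8.93e-05), and at 0.48 and -0.50 with the covariate. GLRX3 was at 0.81 in AML-193 and -1.26 in HL60 (adjusted p = 0.000112), and at -0.15 and -0.66 with the covariate. LAP3 was at 1.34 in AML-193 and -0.56 in HL60 (adjusted p = 0.000141), and at 0.49 and -0.02 with the covariate. NFE2L2 was at 0.89 in AML-193 and -0.55 in HL60 (adjusted p = 0.000558), and at 0.44 and -0.27 with the covariate. MAT2B was at 0.37 in AML-193 and -0.31 in HL60 (adjusted p = 0.00504), and at -0.03 and -0.06 with the covariate. 

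For 4 of the 8 genes described, both AZA arrays lay above vehicle in 1 line and below it in another. The difference was not tested, since the set was chosen on these values. In a single line, 28.8% to 41.2% of all tested genes had both AZA arrays above vehicle and 23.5% to 33.4% below. The share with both directions is not given, so nothing is read from the count. CTH was at 0.26 in KG1a and -3.04 in AML-193, which is 3.30 log2 units apart. Its dimmer probe set was at 0.01 in KG1a, where the arms overlapped, and at -2.10 in AML-193. GCLC was at 0.21 in AML-193 and -0.11 in HNT-34, which is 0.318 log2 units apart. Its other probe sets were both at 0.04 in HNT-34, above vehicle, and overlapped in AML-193 (0.10 and 0.22). GSS was at 0.44 in HL60 and -0.34 in AML-193, which is 0.783 log2 units apart. Its other probe set was at 0.16 in HL60 and at -0.06 in AML-193, where the arms overlapped. AHCY was at 0.25 in AML-193 and -0.69 in HL60, which is 0.935 log2 units apart.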

How the results depend on the processing

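Of the pathway genes, KG1a had 5 lower (not 3) with all probe sets of a gene averaged, and 1 lower when the line was fitted alone; AML-193 then had 15 lower (not 25). With the 3′ minus 5′ covariate AML-193 had 1 higher and 5 lower, HL60 had 12 lower (not 31), and 40 genes (not 72) differed between lines. The cause was not tested. Among called values of named genes and the 8 described, direction turned in AML-193 for MAT2A (0.56 with averaged probe sets, 0.18 with the covariate), MTAP (0.10 with averaged probe sets), ETHE1 (-0.019) and MAT2B (-0.033, both with the covariate). With the covariate the sign also turned in AML-193 for AHCY (-0.05) and GLRX3 (-0.15). Leaving out each array gave 25 to 33 higher and 18 to 26 lower in AML-193, 13 to 23 and 16 to 24 in HNT-34, 8 to 15 and 3 to 4 in KG1a, and 17 to 22 and 24 to 34 in HL60, with 67 to 74 genes differing between lines; the lone array left in a group is assumed to vary like the others. CTH in AML-193 (-3.16 to -2.57) and CBS, SLC7A11 and CHAC1 in the 4 lines kept their sign under every alternative; CBS was at -0.53 in KG1a with averaged probe sets. A second quantile normalization and a trended robust prior changed no call of a named gene. No paired analysis was possible because the labels carry no replicate numbers; arrays were numbered in accession order. Readings near or below the array median are limited by background. Examples are the dim CBS probe set, CHAC1 in AML-193 with AZA, SQOR in HNT-34 and KG1a, and GPX3 in HL60 with vehicle.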
